A study of Homo sapiens with 9 samples.

Results

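The genes described here are 10 markers of the mesenchymal state: the cytoskeletal gene VIM, the adhesion gene CDH2, the transcription factors SNAI1, SNAI2, ZEB1 and ZEB2, and the matrix genes FN1, SPARC, TNC and THBS1. They were listed by name, with no threshold on their values but with earlier results of these data known, and all 10 were found among the 78899 gene IDs of each library. RNA was sequenced from HaCaT cells, an established immortalised human keratinocyte line grown in serum-containing, low-calcium medium. The stated aim was to find transcriptional differences tied to progenitor-like states of keratinocytes. Of 9 libraries, 3 came from a subpopulation named BD and 3 from one named NBD, both defined by fluorescence-activated cell sorting. The other 3 came from the cell line itself, labelled control. What the letters BD and NBD stand for is not said, and no treatment or genetic change is given for any group. All groups share one cell line, so they are a model of one immortalised line in culture.

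An epithelial cell that undergoes a mesenchymal transition loosens its junctions, exchanges E-cadherin for N-cadherin, builds vimentin filaments and deposits a fibronectin-rich matrix. The SNAI and ZEB factors bind E-box sequences in the promoters of epithelial genes and repress them. In skin, keratinocytes take on part of this programme while they migrate to close a wound, and fibronectin, tenascin-C and thrombospondin-1 are matrix proteins of healing wounds.

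Total counts ranged from 17128797 to 29512856 per library. Control replicates 1 and 2 stood apart from the other 7 libraries. On the first principal component of log2 CPM, with 58.2% of the variance, both lay at 110, NBD replicate 2 lay at 3.15, and the rest, control replicate 3 among them, between -46.4 and -24.5. CPM, the usual depth-scaled unit of counts, is taken here relative to the TMM-scaled library total. Results against control are therefore given with all libraries, without control replicate 3, and with control replicate 3 as the only control. The labels do not say whether replicates were cultured separately. The p-values therefore rest on a spread among these samples that may be technical. The 14 keratinocyte markers summed to 4119 to 6431 CPM in the 9 libraries. The 11 fibroblast markers summed to 4.24 to 5.24 CPM in BD, 3.00 to 4.30 CPM in NBD and 0.766 to 5.31 CPM in control, and THY1 and DPT were at 0 in all libraries.

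Per kilobase of the longest coding transcript, THBS1 and FN1 were the most abundant of the 10 genes, at 202 ± 168 and 129 ± 130 CPM per kb (SD, n = 9 libraries). SNAI2 followed at 13.7 ± 3.73, CDH2 at 13.3 ± 5.16 and TNC at 9.74 ± 6.50 CPM per kb. SPARC stood at 2.35 ± 3.38, VIM at 0.581 ± 0.908, ZEB1 at 0.359 ± 0.175, ZEB2 at 0.166 ± 0.103 and SNAI1 at 0.0216 ± 0.0278 CPM per kb. These lengths run from 1.69 kb for SNAI1 to 9.58 kb for ZEB2. THBS1 stood above FN1, FN1 above SNAI2, TNC above SPARC and ZEB1 above ZEB2 in 9 of 9 libraries. Other neighbours in this order changed places between libraries. SNAI2 was above CDH2 in 3 libraries, CDH2 above TNC in 7, SPARC above VIM in 6, VIM above ZEB1 in 6 and ZEB2 above SNAI1 in 8.

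**Figure D1:**
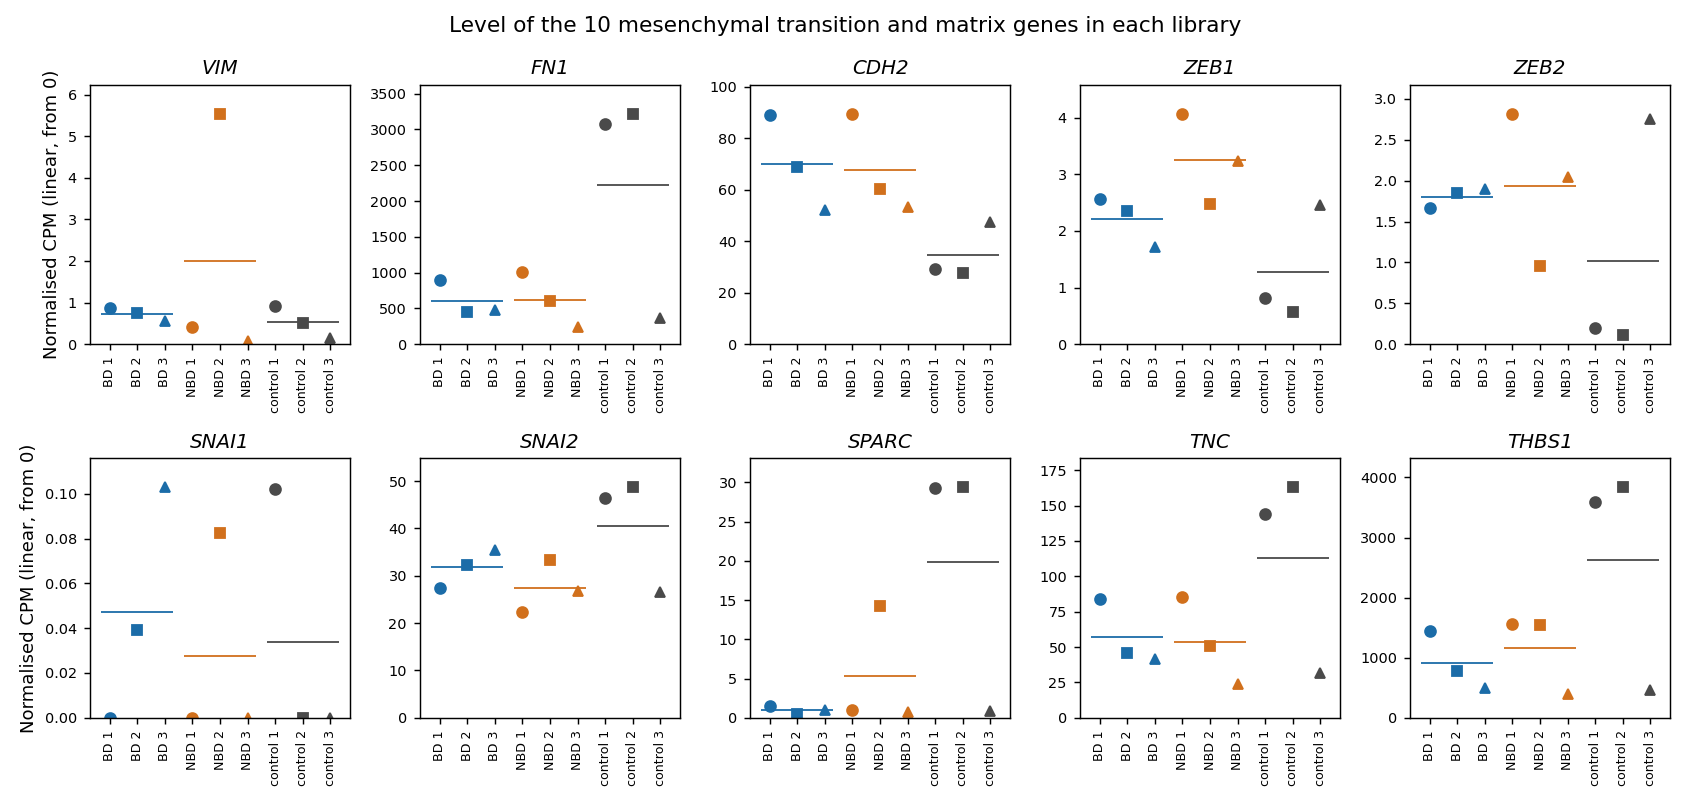
Normalised CPM (vertical axis, linear from 0, a scale of its own for each gene) of the 10 genes in each of the 9 libraries. Points are single libraries (circle, square and triangle for replicates 1, 2 and 3) and lines are group means. FN1, SPARC, TNC and THBS1 are highest in control replicates 1 and 2, and CDH2, ZEB1 and ZEB2 are lowest there.

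The matrix genes come first, since they held the largest share of counts. FN1, THBS1 and TNC followed nearly the same order over the libraries, and their promoters are shown for that reason. The 3 windows hold the 250 bases before the RefSeq start (GRCh38.p14), 5′ to 3′ on the gene's strand. FN1 lies at chr2:215436069-215436318 on the minus strand, THBS1 at chr15:39580829-39581078 on the plus strand and TNC at chr9:115118158-115118407 on the minus strand. Capitals mark matches, on either strand, to the TATA box (TATAA), the GC box (GGGCGG), the CCAAT box, the E-box form CACCTG, the CREB element (TGACGTCA) or the AP-1 element (TGANTCA).
FN1: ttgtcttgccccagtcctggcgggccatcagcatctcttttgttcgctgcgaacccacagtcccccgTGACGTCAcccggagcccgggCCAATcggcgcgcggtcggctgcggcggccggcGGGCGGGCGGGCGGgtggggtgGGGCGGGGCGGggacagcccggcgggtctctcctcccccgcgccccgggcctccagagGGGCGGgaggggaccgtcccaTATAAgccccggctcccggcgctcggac
THBS1: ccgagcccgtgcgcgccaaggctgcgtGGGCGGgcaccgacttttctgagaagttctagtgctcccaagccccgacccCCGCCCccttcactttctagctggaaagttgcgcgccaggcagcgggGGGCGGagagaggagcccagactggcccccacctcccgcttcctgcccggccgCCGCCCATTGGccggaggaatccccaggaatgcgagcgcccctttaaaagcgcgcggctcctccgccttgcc
TNC: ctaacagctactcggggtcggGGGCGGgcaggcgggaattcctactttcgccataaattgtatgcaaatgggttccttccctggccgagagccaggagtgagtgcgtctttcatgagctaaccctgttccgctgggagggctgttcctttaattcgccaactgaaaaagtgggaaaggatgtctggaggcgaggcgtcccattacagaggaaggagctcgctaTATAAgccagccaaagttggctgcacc

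The FN1 window held 6 matches to GGGCGG, the GC box bound by SP1-type factors, of which 5 overlapped or adjoined one another. It also held 1 CCAAT, 1 TGACGTCA, the element known for binding CREB and ATF factors, and 1 TATAA whose first letter lay 28 bases before the start. THBS1 held 4 GGGCGG, the last of them on the reverse strand directly before a reverse CCAAT 66 bases before the start, and no TATAA. TNC held 1 GGGCGG, 229 bases before the start, and 1 TATAA, 27 bases before it. CACCTG, an E-box form bound by SNAI and ZEB factors, and TGANTCA, the AP-1 element, were absent from these letters in all 3 windows. Of 35116 promoter windows of the same length, 42.6% held GGGCGG, 32.0% CCAAT, 18.9% TATAA, 17.5% CACCTG, 6.57% TGANTCA and 1.65% TGACGTCA. GGGCGG was the one motif found in all 3 windows. These matches describe the letters and were not tested against the levels.

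FN1 encodes fibronectin, the glycoprotein that links integrins to collagen and fibrin (GRCh38 chromosome 2, 215360440 to 215436172). Its level was 903, 445 and 478 CPM in BD replicates 1 to 3, 1015, 610 and 239 CPM in NBD, and 3071, 3221 and 361 CPM in control. Control replicates 1 and 2 were higher than every sorted library, and control replicate 3 was lower than all but NBD replicate 3. THBS1 encodes thrombospondin-1, a matricellular protein that can activate latent TGF-beta (chromosome 15, 39581079 to 39599466). It stood at 1443, 774 and 501 CPM in BD, 1555, 1550 and 392 CPM in NBD, and 3596, 3838 and 458 CPM in control. Here too the first 2 control libraries were the highest and control replicate 3 ranked eighth of the libraries. TNC encodes tenascin-C, a matrix protein of wounds and tumour stroma (chromosome 9, 115019578 to 115118257). Its levels were 84.1, 45.9 and 41.2 CPM in BD, 85.4, 50.4 and 24.2 CPM in NBD, and 144, 163 and 31.6 CPM in control.

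All 3 genes were highest in control replicate 2, next in control replicate 1 and then in NBD replicate 1. All 3 were lowest in NBD replicate 3, and second lowest in control replicate 3. Together they took 0.738%, 0.752% and 0.0877% of all counts in control replicates 1 to 3, 0.253%, 0.125% and 0.102% in BD, and 0.272%, 0.207% and 0.0565% in NBD. On the log2 scale their levels ran, relative to the mean over libraries, from -1.70 to 2.05 for FN1, from -1.54 to 1.75 for THBS1 and from -1.34 to 1.41 for TNC. All 3 transcripts are long, and the libraries differed in how long transcripts were covered relative to short ones. The median log2 deviation of 2344 genes of at least 6000 bases minus that of 2578 genes of at most 2000 bases was 0.11, -0.43 and -0.22 in BD, 0.38, 0.10 and -0.25 in NBD, and 0.38, 0.09 and -0.09 in control. It was as high in NBD replicate 1 as in control replicate 1. Its part in the levels of FN1, THBS1 and TNC was not tested.

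**Figure D2:**
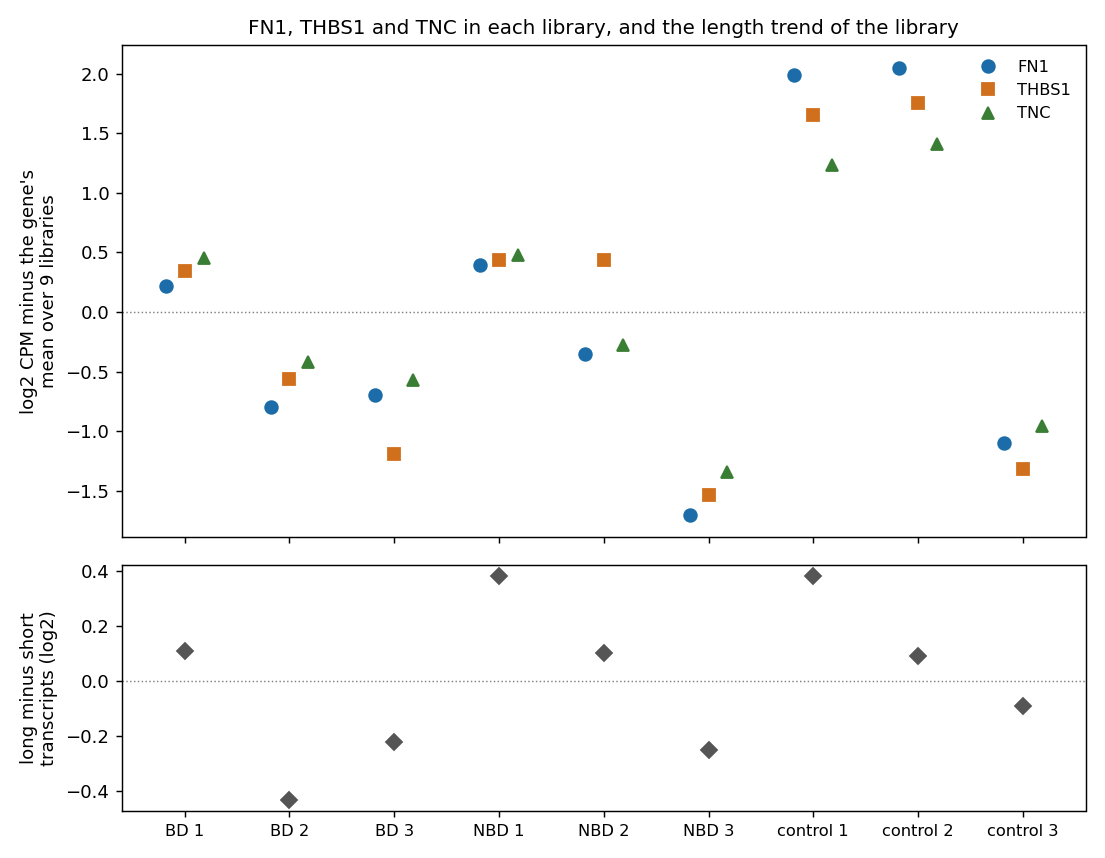
Upper panel: log2 CPM of FN1, THBS1 and TNC minus the gene's mean over the 9 libraries, for each library. Lower panel: median log2 deviation of long minus short transcripts in the same libraries. The 3 genes lie 1.23 to 2.05 above their means in control replicates 1 and 2 and between -1.32 and -0.96 in control replicate 3.

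SPARC encodes osteonectin, a collagen-binding matricellular protein (chromosome 5, 151661096 to 151687165). It stood at 1.49, 0.471 and 0.965 CPM in BD, 0.963, 14.3 and 0.708 CPM in NBD, and 29.3, 29.4 and 0.829 CPM in control. It was thus above 10 CPM in control replicates 1 and 2 and in NBD replicate 2, and at 1.49 CPM or less in the other 6 libraries. Its log2 range of 5.74 was the widest of the 9 tested genes. The protein-coding genes with the most similar pattern over the 9 libraries, of 12583 compared, were ANKRD1, SAMD5 and SLCO2A1, with a root mean square difference of 0.40, 0.41 and 0.43 in log2 CPM. All 3 were at 0 CPM in their lowest library and reached at most 4.14, 2.81 and 3.53 CPM, so their likeness rests partly on low counts.

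CDH2 encodes N-cadherin (chromosome 18, 27950966 to 28177446). It was at 89.2, 68.7 and 52.2 CPM in BD, 89.6, 60.3 and 53.3 CPM in NBD, and 29.2, 27.8 and 47.6 CPM in control. Every sorted library was above every control library, and the closest values were 52.2 CPM in BD replicate 3 and 47.6 CPM in control replicate 3. VIM encodes vimentin, the intermediate filament protein of mesenchymal cells (chromosome 10, 17228259 to 17237593). It had 25, 19 and 16 counts in BD, 11, 134 and 2 in NBD, and 18, 9 and 4 in control. As CPM these were 0.868, 0.746 and 0.551, then 0.407, 5.54 and 0.0787, then 0.920, 0.505 and 0.151. NBD replicate 2 stood above all others, and in the other 8 libraries VIM rested on 25 counts or fewer. In that library the 11 fibroblast markers summed to 4.30 CPM, within the range of the BD libraries. Among them COL1A1 was at 2.23 CPM, against 2.78 to 3.76 CPM in BD, while COL3A1, at 1.41 CPM, was at its highest of the 9 libraries, against 0.314 to 0.517 CPM in BD. Their part in the level of VIM was not tested.

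The transcription factors were low, apart from SNAI2. SNAI2, known as Slug and a factor of basal keratinocytes and wound migration, lies on chromosome 8. It was at 27.5, 32.3 and 35.4 CPM in BD, 22.4, 33.3 and 26.8 CPM in NBD, and 46.4, 48.7 and 26.5 CPM in control, highest in control replicates 1 and 2. SNAI1, known as Snail (chromosome 20, 49982999 to 49988886), had 0, 1 and 3 counts in BD, 0, 2 and 0 in NBD, and 2, 0 and 0 in control. A count of 0 allows up to 3 counts, which is 0.103 to 0.168 CPM depending on the library, so no difference in SNAI1 was detectable at this depth.

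ZEB1 (chromosome 10, 31318495 to 31529814) stood at 2.57, 2.36 and 1.72 CPM in BD, 4.07, 2.48 and 3.23 CPM in NBD, and 0.817, 0.561 and 2.45 CPM in control. Every NBD library was above every control library, though NBD replicate 2 and control replicate 3 were nearly level. ZEB2 (chromosome 2, 144364364 to 144524583) stood at 1.67, 1.85 and 1.90 CPM in BD, 2.82, 0.952 and 2.05 CPM in NBD, and 0.204, 0.112 and 2.75 CPM in control. Control replicates 1 and 2 held the lowest values of both ZEB genes. For ZEB2 these were 4 and 2 counts, and the 0.112 CPM of control replicate 2 lay below the 0.168 CPM that 3 counts make there. Control replicate 3 lay within the range of the sorted libraries for each. ZEB2 was most like NPAS3, GFPT2 and BMF in pattern (root mean square difference 0.21, 0.24 and 0.29 in log2 CPM), and VIM most like TNS1, POLR2J2 and NPIPB11 (0.75, 0.77 and 0.78). Low counts limit this for NPAS3, at 0 to 0.904 CPM, TNS1, at 0.0393 to 2.77 CPM, and POLR2J2, at 0.0393 to 1.16 CPM.

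Between the sorted subpopulations, BD and NBD, none of the 9 tested genes was called. A call here means a Benjamini-Hochberg adjusted p under 0.05 from the quasi-likelihood test of edgeR. The background was 0.0177% of 16921 genes, 3 genes, all lower in BD. None of the 9 reached an unadjusted p under 0.05, where 5.86% of all genes did. DESeq2, with a background of 0.337%, called 0 of the 8 for which it gave an adjusted p, and limma-voom, with a background of 0.0295%, 0 of 9. The groups overlapped for all 10 genes, while 14.6% of tested genes did not overlap. The median log2 fold change of the 9 was -0.11, and that of all genes tested -0.02. In bulk RNA, fewer cells of a type and less RNA per cell cannot be told apart.

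FN1 averaged 608 ± 255 CPM in BD and 621 ± 388 CPM in NBD (SD, n = 3 each), with a log2 fold change of -0.03 ± 0.71 (SE; 95% interval -1.60 to 1.54). THBS1 averaged 906 ± 485 and 1166 ± 670 CPM, -0.36 ± 0.73 (-1.98 to 1.25), and TNC 57.0 ± 23.5 and 53.3 ± 30.7 CPM, 0.10 ± 0.58 (-1.19 to 1.38). The intervals of these matrix genes therefore include doubling and halving. The tightest were those of SNAI2, at 31.7 ± 3.98 against 27.5 ± 5.51 CPM (0.21 ± 0.25, -0.35 to 0.76), and CDH2, at 70.0 ± 18.5 against 67.7 ± 19.2 CPM (0.05 ± 0.29, -0.59 to 0.68). ZEB1 had a log2 fold change of -0.56 ± 0.50 (-1.67 to 0.56) and ZEB2 of -0.11 ± 0.87 (-2.03 to 1.82).

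SPARC and VIM had the lowest fold changes of BD against NBD, and NBD replicate 2 decided both. SPARC averaged 0.977 ± 0.511 CPM in BD against 5.31 ± 7.76 CPM in NBD, so that the log2 fold change was -2.43 ± 1.30 (edgeR adjusted p 0.816). Without NBD replicate 2 it was 0.23 ± 1.12. VIM averaged 0.722 ± 0.160 and 2.01 ± 3.06 CPM, -1.47 ± 1.12 (edgeR adjusted p 0.856), and without NBD replicate 2 it was 1.55 ± 0.87. With no filter on low counts edgeR called SPARC, at -2.40 ± 0.37 with an adjusted p of 1.7e-07, on a background of 0.333% of 39344 genes.

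For BD against control, with all libraries, edgeR called 0 of the 9 tested genes, on a background of 0% of 16921 genes. An unadjusted p under 0.05 was reached by 3 of the 9, CDH2 with a higher level in BD and FN1 and SPARC with lower ones, against 13.8% of all genes. DESeq2 and limma-voom called 0, with no adjusted p from DESeq2 for SPARC, on backgrounds of 0.987% and 0.00591%. With no filter on low counts edgeR called CDH2, FN1, SPARC, TNC and THBS1, on a background of 2.95% of 39344 genes. CDH2 alone did not overlap between the groups, with the higher level in BD, where 15.8% of tested genes did not, 8.05% with BD higher. It averaged 70.0 ± 18.5 CPM in BD and 34.9 ± 11.1 CPM in control, a log2 fold change of 1.00 ± 0.29 (edgeR adjusted p 0.333). FN1 averaged 608 ± 255 against 2218 ± 1610 CPM (-1.87 ± 0.73, adjusted p 0.344) and SPARC 0.977 ± 0.511 against 19.8 ± 16.5 CPM (-4.33 ± 1.38, adjusted p 0.333). For both, control replicate 3 lay far below the other control libraries. The median log2 fold change was -0.35 for the 9 genes and 0.03 for all genes tested.

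Without control replicate 3, 7 of the 9 genes were called by edgeR for BD against control, on a background of 24.3% of 17755 genes. The control side then held only control replicates 1 and 2, which the first principal component of the same data had set apart. Sorting and whatever set these libraries apart cannot be told apart here. CDH2, ZEB1 and ZEB2 rose and FN1, SPARC, TNC and THBS1 fell, so the mesenchymal cadherin and the ZEB factors moved one way and the matrix genes the other. Genes called higher were 13.8% of all tested and genes called lower 10.5%. ZEB2 had a log2 fold change of 3.46 ± 0.63 (edgeR adjusted p 0.00360), ZEB1 of 1.68 ± 0.42 (0.0149) and CDH2 of 1.31 ± 0.28 (0.00735). The ZEB2 value rests on 4 and 2 counts in control replicates 1 and 2, so its size is uncertain. SPARC changed by -4.88 ± 1.03 (0.00718), FN1 by -2.36 ± 0.48 (0.00634), THBS1 by -2.03 ± 0.53 (0.0187) and TNC by -1.42 ± 0.43 (0.0341). SNAI2, at -0.57 ± 0.20 (0.0603), and VIM, at 0.02 ± 1.20 (0.992), were not called. The median log2 fold change was -0.57 for the 9 genes and 0.04 for all genes.

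Cell type markers also moved against control when control replicate 3 was left out. In that fit 3 of the 14 keratinocyte markers rose and 5 fell in BD, where 13.8% of all genes were called higher and 10.5% lower. In NBD 2 rose and 5 fell, against 11.6% and 6.56% of all genes. With all libraries edgeR called 0 of the 14 in either comparison. The values that follow are without control replicate 3. KRT15, a keratin of basal cells, rose by 3.79 ± 0.28 on the log2 scale in BD (edgeR adjusted p 2.5e-05) and by 3.78 ± 0.28 in NBD (2.8e-05). Of the markers that fell, KRT5 changed by -0.94 ± 0.29 in BD (0.0361) and -1.16 ± 0.29 in NBD (0.0197). COL17A1 changed by -0.88 ± 0.25 (0.0283) and -0.97 ± 0.25 (0.0238). KRT14, at -0.26 ± 0.44 and -0.13 ± 0.45, was not called. KRT6A, a keratin of activated keratinocytes, changed by -2.04 ± 0.36 in BD (0.00298) and -1.70 ± 0.36 in NBD (0.00937). Of the markers of other cell types, the endothelial cadherin gene CDH5 rose by 4.02 ± 0.47 in BD and 3.59 ± 0.47 in NBD, the leukocyte gene CD14 by 2.78 ± 0.43 and 2.57 ± 0.43, and COL1A1 by 2.72 ± 0.51 and 1.95 ± 0.51. VWF, another endothelial gene, changed by -2.64 ± 0.76 in BD, and no melanocyte marker was called. Control replicate 3 stood at 442 CPM for KRT15, 16.6 for CDH5, 6.33 for CD14 and 3.20 for COL1A1, each within the range of the sorted libraries. With all libraries edgeR called none of these genes. Several other markers were near 0, with 12 counts in total for PECAM1, 2 for KDR, 7 for PTPRC and 5 for COL1A2. The part of these markers in the changes of the 9 genes was not tested.

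With control replicate 3 as the only control, its spread taken from the other groups, none of the 9 genes was called, on a background of 0% with 1.10% of 18832 genes at an unadjusted p under 0.05. None of the 9 reached that unadjusted p. The log2 fold changes of BD were then 0.74 for FN1, 0.97 for THBS1, 0.84 for TNC and 0.23 for SPARC, all on the other side of 0. ZEB1 came to -0.15 and ZEB2 at -0.61, also turned, while CDH2 kept its sign at 0.55. SNAI2 turned as well, to 0.25, so 7 of the 9 genes had another direction against control replicate 3 than in the fit of all libraries.

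**Figure D3:**
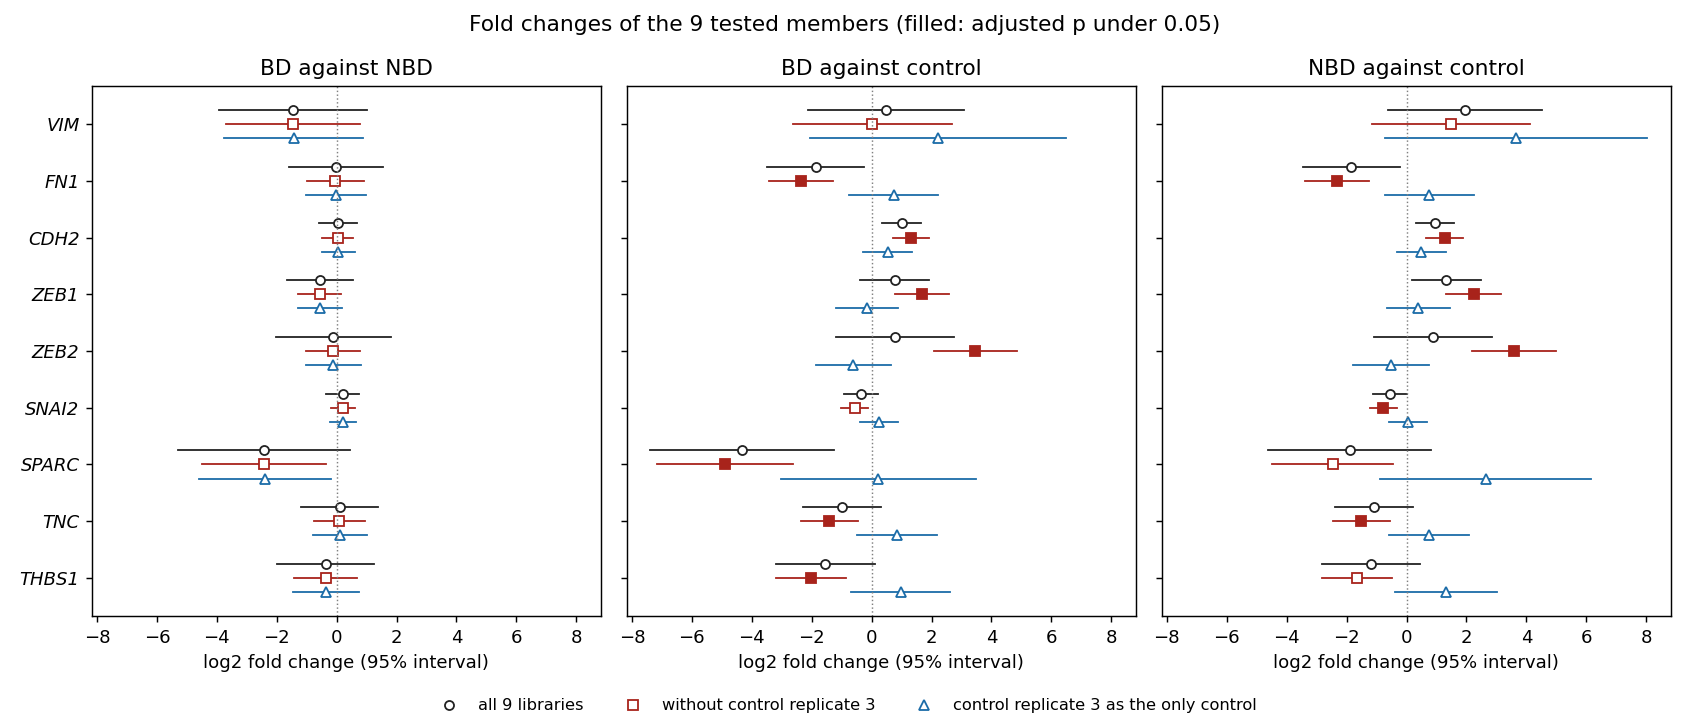
Log2 fold changes with 95% intervals (horizontal axis) of the 9 tested genes in 3 comparisons, from edgeR fits of all 9 libraries (circles), without control replicate 3 (squares) and with it as the only control (triangles). Filled symbols have an adjusted p under 0.05, and they occur in the fit without control replicate 3, with 7 genes for BD and 6 for NBD.

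NBD against control followed, with the same control libraries as the BD comparison. With all libraries edgeR called 0 of the 9 genes, on a background of 0% of 16921 genes. An unadjusted p under 0.05 was reached by 4, CDH2 and ZEB1 with higher and FN1 and SNAI2 with lower levels in NBD, against 9.13% of all genes. DESeq2, which gave SPARC no adjusted p and had a background of 0.171%, called 0, and limma-voom 0 on a background of 0%. With no filter edgeR called CDH2, FN1, SPARC, TNC and THBS1, on a background of 1.51% of 39344 genes. CDH2 and ZEB1 did not overlap between the groups, both higher in NBD, where 8.42% of tested genes did not, 4.67% with NBD higher. CDH2 averaged 67.7 ± 19.2 CPM in NBD (log2 fold change 0.96 ± 0.29, edgeR adjusted p 0.539) and ZEB1 3.26 ± 0.797 against 1.28 ± 1.02 CPM in control (1.33 ± 0.52, 0.539). FN1 was at -1.84 ± 0.73 and SNAI2, with 27.5 ± 5.51 against 40.5 ± 12.2 CPM, at -0.56 ± 0.25. The median log2 fold change was -0.56 for the 9 genes and 0.04 for all genes tested.

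Without control replicate 3, 6 of the 9 genes were called for NBD against control by edgeR, on a background of 18.2% of 17755 genes, 11.6% higher and 6.56% lower. ZEB2 rose by 3.58 ± 0.63 on the log2 scale (edgeR adjusted p 0.00395), ZEB1 by 2.25 ± 0.42 (0.00520) and CDH2 by 1.27 ± 0.28 (0.0111). The control side again held only control replicates 1 and 2, with 4 and 2 counts for ZEB2. FN1 changed by -2.33 ± 0.48 (0.00881), TNC by -1.51 ± 0.43 (0.0335) and SNAI2 by -0.77 ± 0.20 (0.0240). THBS1, at -1.66 ± 0.53 (0.0508), and SPARC, at -2.47 ± 0.92 (0.0862), were not called, and VIM was at 1.48 ± 1.20 (0.418). Without NBD replicate 2 and with all controls, SPARC was at -4.55 ± 1.26 and VIM at -1.06 ± 0.88. When control replicate 3 was the sole control, edgeR called none of the 9, with 0 at an unadjusted p under 0.05, and the background was 0%, with 1.32% of genes at that unadjusted p. FN1 was then at 0.76, THBS1 at 1.32, TNC at 0.74, SPARC at 2.64 and ZEB2 at -0.51.

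Other genes of the pathway were read from 6 lists. With all libraries edgeR called 0 of their 94 tested genes in each comparison. An unadjusted p under 0.05 was reached by 6 between BD and NBD, by 25 between BD and control and by 15 between NBD and control. Of all genes, 5.86%, 13.8% and 9.13% reached it in these comparisons. DESeq2 called 0 between BD and NBD, SPOCK1 between BD and control and ID3 between NBD and control, and limma-voom called 0. The backgrounds, in the same order, were 0.337%, 0.987% and 0.171% for DESeq2 and 0.0295%, 0.00591% and 0% for limma-voom. With no filter on low counts edgeR called ITGA4 between BD and NBD, 21 of 113 list genes between BD and control and 16 between NBD and control. The backgrounds there were 0.333%, 2.95% and 1.51% of 39344 genes. The counts and, unless said otherwise, the fold changes below are of BD or NBD against control without control replicate 3. In those fits 24.3% and 18.2% of all genes were called. For BD against NBD without control replicate 3 the background was 0.0901%, and edgeR called 0 of their 95 tested genes, with 15 at an unadjusted p under 0.05, against 10.0% of all genes.

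Of 12 other transition factors 8 were tested. In both BD and NBD 2 rose, TWIST1 and LEF1, and 1 fell, with medians over the list of -0.28 and -0.05 against 0.04 and 0.08 over all genes. TWIST1, a basic helix-loop-helix factor of mesoderm, was at 7.16, 9.03 and 10.9 CPM in BD, 5.00, 3.97 and 10.1 CPM in NBD, and 0.664, 0.617 and 11.3 CPM in control. Control replicates 1 and 2 were the low libraries, as for ZEB2. Its log2 fold change was 3.82 ± 0.49 in BD (edgeR adjusted p 6.0e-04) and 3.32 ± 0.49 in NBD (0.00147), and 1.09 ± 0.90 and 0.58 ± 0.89 with all libraries. LEF1, a Wnt effector, was at 1.33 ± 0.28 and 1.01 ± 0.28. Its level in control replicate 3, 8.59 CPM, lay within the range of the sorted libraries.

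Among 19 tested genes of epithelial adhesion and splicing, 7 rose and 0 fell in BD, and 4 rose and 1 fell in NBD, with medians of 0.02 in both. ELF3, an epithelial ETS factor, was at 433, 343 and 437 CPM in BD, 347, 182 and 258 CPM in NBD, and 31.2, 33.1 and 326 CPM in control. It changed by 3.66 ± 0.31 in BD and 3.05 ± 0.30 in NBD. The tight junction gene CLDN1 changed by 1.51 ± 0.25 and 1.50 ± 0.25, OVOL2, a repressor of the mesenchymal programme, by 1.43 ± 0.27 and 1.18 ± 0.27, and the protease gene ST14 by 1.03 ± 0.20 and 0.73 ± 0.20. CDH1, the E-cadherin gene, was at 219, 208 and 245 CPM in BD, 191, 170 and 148 CPM in NBD, and 261, 259 and 191 CPM in control. It fell in NBD, with a log2 fold change of -0.60 ± 0.18 (edgeR adjusted p 0.0423), with NBD replicate 1 level with control replicate 3. ELF3, CLDN1, OVOL2 and ST14, on the epithelial side, were higher in each sorted library than in control replicates 1 and 2. So were ZEB1 and ZEB2, on the mesenchymal side. Control replicate 3, at 610 CPM for CLDN1, 5.01 for OVOL2 and 172 for ST14, lay within the range of the sorted libraries.

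Of 18 tested other matrix genes, 2 rose and 8 fell in BD and 3 rose and 6 fell in NBD, with medians of -1.23 and -0.30. THBS2, the paralogue of THBS1, rose. It was at 7.40, 5.73 and 5.69 CPM in BD, 5.07, 4.72 and 4.37 CPM in NBD, and 0.664, 0.280 and 5.65 CPM in control, which gave log2 fold changes of 3.71 ± 0.40 in BD and 3.31 ± 0.40 in NBD. SPOCK1, a proteoglycan of the SPARC family, had 19.0, 18.9 and 1.09 CPM in control and 3.68 CPM or less in each sorted library (-3.19 ± 0.36 in BD, -2.92 ± 0.36 in NBD). EFEMP1, a fibulin, changed by -1.94 ± 0.24 and -1.90 ± 0.24, and TGFBI, a TGF-beta-induced matrix protein, by -1.44 ± 0.25 and -1.55 ± 0.25. In control replicate 3 TGFBI, at 322 CPM, lay within the range of the sorted libraries, and EFEMP1, at 87.3 CPM, below it. SMOC2, another SPARC-family gene, reached 1.53 and 1.35 CPM in the first 2 control libraries. It had 0.0827 CPM in NBD replicate 2 and no counts in the other 6 libraries, so no fold is given.

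The receptors of these matrix proteins gave 3 rises and 4 falls of 16 tested in BD and 1 rise and 4 falls in NBD, with medians of -0.05 and 0.11. ITGB8, a partner of integrin alpha-V, rose by 1.48 ± 0.23 and 1.37 ± 0.23. ITGA4, a subunit of fibronectin receptors, was at 7.88, 15.6 and 14.4 CPM in BD, 6.74, 57.3 and 15.6 CPM in NBD, and 126, 98.6 and 17.6 CPM in control. NBD replicate 2 was the highest sorted library for ITGA4, as for SPARC. Its log2 fold change was -3.14 ± 0.66 in BD and -2.07 ± 0.64 in NBD. CD44, a hyaluronan receptor, changed by -0.89 ± 0.22 and -0.79 ± 0.22. The syndecan gene SDC1 rose in BD by 0.84 ± 0.18. ITGB5 changed by -0.78 ± 0.21 in BD and -1.04 ± 0.21 in NBD, and was called in both. ITGA5, the alpha subunit of the classical fibronectin receptor, changed by -0.95 ± 0.22 in NBD and was not called in BD (-0.43 ± 0.22). Control replicate 3 lay within the range of the sorted libraries for ITGB8 (133 CPM), CD44 (453), SDC1 (193), ITGB5 (56.7) and ITGA5 (38.7).

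In the list of mesenchymal cytoskeleton, crosslinking and invasion genes, 4 of 16 rose and 4 fell in BD, and 1 rose and 4 fell in NBD, with medians of -0.12 and -0.25. LOXL2, a collagen crosslinking oxidase, was at 10.2, 10.4 and 8.58 CPM in BD, 9.74, 19.0 and 5.47 CPM in NBD, and 66.3, 73.7 and 6.25 CPM in control. It changed by -2.83 ± 0.38 in BD and -2.61 ± 0.38 in NBD. The galectin gene LGALS1 changed by -1.51 ± 0.25 and -1.94 ± 0.25, and the tropomyosin gene TPM1 by -1.62 ± 0.29 and -1.38 ± 0.29. PLOD2, a lysyl hydroxylase of collagen, rose by 1.93 ± 0.33 and 1.84 ± 0.33. In control replicate 3 PLOD2 was at 66.9 CPM, LGALS1 at 55.9 and TPM1 at 42.7, each within the range of the sorted libraries.

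Of 18 TGF-beta inputs and mediators, 1 rose and 5 fell in BD and 1 rose and 3 fell in NBD, with medians of -0.47 and -0.36. TGFB2, a ligand, was at 3.65, 1.96 and 0.965 CPM in BD, 2.33, 5.34 and 1.30 CPM in NBD, and 14.6, 10.9 and 0.791 CPM in control. It was highest in control replicates 1 and 2 and lowest in control replicate 3, and changed by -2.53 ± 0.57 and -2.09 ± 0.56. PMEPA1, a feedback target of the pathway, changed by -1.73 ± 0.37 and -1.32 ± 0.36. The SMAD target ID3 changed by -1.46 ± 0.27 and -1.87 ± 0.27, while its paralogue ID1 rose by 1.24 ± 0.29 and 0.94 ± 0.29. For PMEPA1 (13.8 CPM), ID3 (40.7) and ID1 (422), control replicate 3 lay within the range of the sorted libraries.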

How the data were processed

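The authors deposited raw read counts, 1 table per library and with no normalization. Per the submitters' processing notes, FastQC 0.74, Trimmomatic 0.39, STAR 2.7.11b, featureCounts and GRCh38 were used. Per the labels' protocols, libraries were stranded, rRNA-depleted and paired-end, and RNA came from 2 micro-scale kits. Which kit gave which library, the annotation release, the strand setting and how multiply matching reads were treated were not given in the sources used here. In GENCODE 29, 7 of the 10 genes (all but FN1, SNAI1 and SNAI2) overlap another gene on the opposite strand, so their counts are uncertain.

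Symbols came from a gene name table for 61458 IDs and from GENCODE 29 for 54 more. Promoter windows came from RefSeq, with entries for 8 of the 10 genes. One edgeR 4.0.16 quasi-likelihood fit in R 4.3.3 held all 9 libraries, with TMM scaling, filterByExpr (16921 genes, SNAI1 left out with 8 counts in total), 6 residual degrees of freedom and no block. Two-sided p-values were adjusted by Benjamini-Hochberg over every gene tested, and calls were made below 0.05. The filter was run anew for each set of libraries. Log2 fold changes are given ± SE. The log2 CPM of likeness and deviations used a prior count of 2. DESeq2 1.42.0, limma-voom (limma 3.58.1) and other settings were alternatives, 16 in all including each library left out, 1 of them (control replicate 3 as the only control) chosen after seeing the data. The edgeR script was tested on simulated data. Plots used matplotlib 3.10.9 in Python 3.11.15.

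Named were all 10 genes, up to 4 called genes by smallest adjusted p per list and comparison, and, for the 3 genes of widest log2 range, the 3 protein-coding genes of most similar pattern. Where a list had no call, the rule named up to 3 genes by mean level, whose values are left out here. The result of 1 listed gene is not reported here. The genes and lists were chosen with earlier results of these data known. Floors cover counting error only.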

Additional observations from a re-analysis of the deposited data

How the results depend on the processing

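Of the fold changes of the 9 tested genes in 3 comparisons under 16 alternatives, 378 kept their direction and side of the threshold, 24 were newly called, 0 lost a call and 30 changed sign. None of these fold changes was called in the fit of all libraries, so no call could be lost. SPARC by DESeq2, which gave it no adjusted p, is among the 378 by direction alone. Genes called for BD against NBD, 3 with all libraries, numbered 131 with no filter on low counts, 57 by DESeq2, 5 by limma-voom, 5 with the 6 libraries of these groups and 9 with control replicate 3 as the only control, and 0 to 16 with 1 library left out. For BD against control the count of 0 became 1162 with no filter, 167 by DESeq2, 1 by limma-voom, and 0 to 4317 with 1 library left out, the highest without control replicate 3. For NBD against control it became 594 with no filter, 29 by DESeq2, and 0 to 3228, again highest without control replicate 3. With no filter, FN1, CDH2, SPARC, TNC and THBS1 were called in both comparisons with control, and the cause was not tested.

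For BD against NBD limma-voom gave 0.28 for VIM, 0.12 for FN1 and 0.01 for ZEB2. With 1 library left out, log2 fold changes ran from -2.03 to 1.55 for VIM, -0.44 to 0.52 for FN1, -0.17 to 0.30 for CDH2, -0.43 to 0.26 for ZEB2, -2.94 to 0.23 for SPARC and -0.30 to 0.61 for TNC. For NBD against control VIM ran from -1.06 to 2.64. With control replicate 3 as the only control, BD gave 0.74 for FN1, -0.15 for ZEB1, -0.61 for ZEB2, 0.25 for SNAI2, 0.23 for SPARC, 0.84 for TNC and 0.97 for THBS1. NBD gave 0.76 for FN1, -0.51 for ZEB2, 0.04 for SNAI2, 2.64 for SPARC, 0.74 for TNC and 1.32 for THBS1. The cause of these sign changes was not tested.

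The replicate numbers, which the groups share, were used as a block. Same-numbered libraries correlated in their deviations at 0.61, 0.07 and 0.33 for BD and NBD, 0.25, 0.04 and 0.26 for BD and control, and 0.04, 0.44 and 0.37 for NBD and control. Of these, 2 of 3, 3 of 3 and 3 of 3 correlated best with their own number, a hint of pairing from the data. Because 1 pair in each was below 0.1, the numbers were not taken as pairs. With the replicate block 0 genes were called for BD against NBD, 0 for BD against control and 0 for NBD against control, and FN1 turned to 0.25 and ZEB2 to 0.02 for BD against NBD. Depth limits SNAI1 and VIM, which rest on few counts, and ZEB2, which had 4 and 2 counts in control replicates 1 and 2.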
